A study of Homo sapiens with 16 samples.

Results

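Total RNA, the transcripts of whole cells, was sequenced in 8 libraries of MDA-MB-231 cells. This human line derives from a triple-negative breast cancer, and the labels give its source as a xenograft cell line. The comparison set the 4 libraries from cells with CRISPRi (CRISPR interference: a catalytically dead Cas9 that a guide RNA places on DNA to block transcription) against tRNA-Ile-GAU beside the 4 from cells with CRISPRi against eGFP, a sequence that human cells lack. The labels write the target as Ile GAT, the same anticodon in DNA letters. Under each guide, 2 libraries came from cells with a control construct (Ctrl) and 2 from cells overexpressing tRNA-Ile-UAU (OE Ile TAT, here OE), and the construct entered the test as an additive term. All 4 groups received no treatment and grew in the same serum-containing medium. These 8 libraries are part of 16 in the series, and the other 8 hold ribosome-protected fragments (footprints) of the same 4 groups. Every gene of the count files was included, noncoding genes too: 26485 were listed and 11720 passed the filter on low counts. Replicates carry numbers in the labels, with no word on separate cultures. The p-values here reflect the spread among these libraries and nothing wider, and that spread may be technical. Whether the cells of an arm are a pool or a clone is not given in the labels. Effects of the guide sequence, of the tRNA and of the particular cells carrying that guide cannot be told apart.

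A tRNA carries its amino acid to the codons that its anticodon pairs with, and isoleucine is read by tRNAs with the anticodons GAU, UAU and the inosine-modified AAU. tRNA genes are short, are transcribed by RNA polymerase III and occur in near-identical copies, so gene counts from short reads rarely resolve them. CRISPRi repressors commonly carry the KRAB domain of the zinc finger protein ZNF10, which recruits TRIM28 and the histone methyltransferase SETDB1 to silence chromatin near the guide's site. MDA-MB-231 is a mesenchymal-like line, known for high vimentin and CD44 and for low E-cadherin and estrogen receptor.

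The libraries held 2743415 to 5446599 counts on genes with the Ile GAU guide and 2512247 to 3866467 with the eGFP guide. VIM, vimentin, was between 1620 and 1777 CPM (counts scaled to a common library size, per 1e6 reads on genes) in the Ile GAU libraries and between 1703 and 1746 CPM in the eGFP libraries. ESR1, the estrogen receptor, was at 0.178 CPM in 1 Ile GAU library and at 0 in the 7 other libraries. It is 1 of 10 luminal or epithelial markers, none of which was at 0 throughout. Their sum was 64.6 to 147 CPM with the Ile GAU guide and 74.4 to 79.2 CPM with the eGFP guide. Of the 10, 4 passed the filter, 3 of these were higher with the Ile GAU guide and 0 were called. The summed level of 8 fibroblast markers was 10.3 to 14.7 CPM with the Ile GAU guide and 4.35 to 14.4 CPM with the eGFP guide, and DCN, LUM, COL3A1 and THY1 were at 0 throughout. Of 8 immune markers, CD3E and ITGAM were at 0 throughout, and the sum was 11.9 to 36.9 CPM with the Ile GAU guide and 12.3 to 16.5 CPM with the eGFP guide. The replicates of the Ile GAU guide with OE stood apart from each other. A chi-square of their counts over genes was 13.9 per degree of freedom, against 2.29 for the Ile GAU Ctrl pair, 2.26 for the eGFP OE pair and 1.33 for the eGFP Ctrl pair. Results are given with and without these libraries.

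The Ile GAU guide went with 161 changed genes of 11720 tested, which is 1.37% of them. With that guide 35 genes (0.299%) rose and 126 (1.08%) fell, at an adjusted p under 0.05 by edgeR's quasi-likelihood test, Benjamini-Hochberg adjusted over all tested genes. Genes that passed are termed called. In all 161 the 4 Ile GAU libraries did not overlap with the 4 eGFP libraries, which held for 8.47% of all tested genes (3.4% above and 5.08% below). With no overlap, the direction within Ctrl cells and within OE cells was fixed in advance, and all 161 had the same. Within Ctrl and OE cells the guide alone gave 3 (0.0256%) and 8 (0.0683%) called genes, from 2 libraries against 2. The naming of genes by size below also required non-overlap, which is therefore no further support for those genes. Most changes were small. Only 12 of the 35 risen and 12 of the 126 fallen genes differed by more than 2-fold, and the median log2 fold change was 0.67 among the risen and -0.54 among the fallen. Most fallen genes, 96 of 126, lie on chromosome 7, and no risen gene does.

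The receptor gene HTR1F was lower by the widest margin. HTR1F encodes the serotonin receptor 5-HT1F, a G protein-coupled receptor that lowers cyclic AMP. It had 3, 1, 1 and 2 reads in the Ile GAU libraries, against 33, 36, 31 and 36 reads in the eGFP libraries. Per-library values run throughout over Ctrl replicates 1 and 2 and then OE replicates 1 and 2. Scaled to depth, HTR1F was at 1.10, 0.235, 0.178 and 0.517 CPM with the Ile GAU guide and at 13.1, 12.02, 12.3 and 9.28 CPM with the eGFP guide. No Ile GAU library came near the lowest eGFP library, with either construct. The log2 fold change was -4.62 ± 0.38 (SE, n = 4 per guide), with an adjusted p of 0.000497 by edgeR. From the pooled reads, 7 against 136, HTR1F was 26.6-fold lower with the Ile GAU guide (95% exact interval 12.6 to 67.5, counting error only). The footprint files list only genes with at least 1 read. HTR1F was absent from those of all 4 Ile GAU libraries and of eGFP OE replicate 1, and was at 1.68, 3.39 and 6.99 CPM in the other eGFP libraries, too low for the filter there.

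Promoter sequence is shown for HTR1F, which fell most, and for ZNF10 and PTK7, the risen genes with the lowest adjusted p and with the largest fold among the named genes. No guide was matched to these windows, and whether a guide acts there was not tested. Each runs 5′ to 3′ on the gene's strand over 250 bases before and 50 after a start (RefSeq, GRCh38.p14). Capitals mark the Sp1-type box GGGCGG or its complement CCGCCC. HTR1F has starts on the plus strand with windows at chr3:87792456-87792755 (upstream) and chr3:87982326-87982625 (inner), ZNF10 at chr12:133130377-133130676 on the plus strand and PTK7 at chr6:43076064-43076363 on the plus strand. PTK7 has another start with a window at chr6:43076564-43076863, which is not printed and holds 2 boxes and 27 CpG at 68.7% G and C.
HTR1F upstream: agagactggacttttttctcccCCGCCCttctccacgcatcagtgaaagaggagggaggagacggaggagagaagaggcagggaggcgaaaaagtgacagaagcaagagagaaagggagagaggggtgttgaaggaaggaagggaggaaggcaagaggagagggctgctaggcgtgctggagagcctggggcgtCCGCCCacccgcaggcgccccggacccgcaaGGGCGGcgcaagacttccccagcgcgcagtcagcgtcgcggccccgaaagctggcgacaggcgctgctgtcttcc
HTR1F inner: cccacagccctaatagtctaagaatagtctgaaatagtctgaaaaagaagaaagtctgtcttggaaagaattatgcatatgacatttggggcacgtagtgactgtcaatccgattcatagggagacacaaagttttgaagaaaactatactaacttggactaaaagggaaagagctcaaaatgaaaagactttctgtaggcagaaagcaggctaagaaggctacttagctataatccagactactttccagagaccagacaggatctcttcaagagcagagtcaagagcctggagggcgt
ZNF10: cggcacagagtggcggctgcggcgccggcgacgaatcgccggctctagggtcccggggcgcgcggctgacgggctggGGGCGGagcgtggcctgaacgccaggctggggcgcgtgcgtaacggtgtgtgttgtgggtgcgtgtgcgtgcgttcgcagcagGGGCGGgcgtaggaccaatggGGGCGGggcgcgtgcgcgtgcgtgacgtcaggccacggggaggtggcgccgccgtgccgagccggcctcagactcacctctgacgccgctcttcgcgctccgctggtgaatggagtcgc
PTK7: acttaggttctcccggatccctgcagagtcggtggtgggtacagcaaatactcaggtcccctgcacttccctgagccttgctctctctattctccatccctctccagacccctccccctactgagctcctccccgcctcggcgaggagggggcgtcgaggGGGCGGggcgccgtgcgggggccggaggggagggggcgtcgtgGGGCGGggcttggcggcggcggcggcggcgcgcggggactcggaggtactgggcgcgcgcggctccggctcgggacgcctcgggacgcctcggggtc
The upstream HTR1F window holds 3 such boxes and 21 CpG dinucleotides at 64.0% G and C, whereas the inner one holds 0 boxes and 3 CpG at 41.3%. The ZNF10 window has 3 boxes and 46 CpG at 74.3%, and the PTK7 window 2 boxes and 34 CpG at 73.3%. Of the 35116 windows of the same length in the table, 45.0% hold the box on either strand, the median CpG count is 14 and the median G and C content 58.7%. TATAAA, on either strand, was in none of these windows and in 11.5% of all. The 24 genes named for size had 16 with a window in the table. The counts are per gene, so the reads do not tell which HTR1F start was used.

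Other fallen genes away from chromosome 7 include regulators of growth and development. INHBB, the beta B subunit of inhibins and activins, was at 4.05, 4.69, 1.96 and 4.39 CPM in the Ile GAU libraries, against 11.1, 13.4, 25.7 and 15.2 CPM in the eGFP libraries. The highest Ile GAU value lay under the lowest eGFP value, and the log2 fold change was -2.12 ± 0.33 (adjusted p = 0.0129). EYA1, a developmental phosphatase and transcription cofactor, was at 3.68, 3.52, 4.28 and 2.84 CPM with the Ile GAU guide and at 10.3, 10.4, 13.5 and 12.1 CPM with the eGFP guide (log2 -1.67 ± 0.22, adjusted p = 0.00473). CCND2 encodes cyclin D2, a partner of CDK4 and CDK6 in the G1 phase. Its level was 7.36, 7.51, 8.55 and 10.1 CPM with the Ile GAU guide and 18.6, 15.7, 25.7 and 20.6 CPM with the eGFP guide (log2 -1.26 ± 0.17, adjusted p = 0.00502). In each of these genes every Ile GAU library lay under every eGFP library, as the naming of genes by size required. CCND2, EYA1 and HTR1F stayed called when any 1 of the 8 libraries was left out, and INHBB lost the call without eGFP Ctrl replicate 2.

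Among the risen genes of at least 5 CPM on average, PTK7 and CDH11 had the largest folds. PTK7 encodes a receptor pseudokinase of non-canonical Wnt and planar polarity signalling. It was at 36.4, 34.0, 51.9 and 27.9 CPM with the Ile GAU guide and at 8.71, 13.4, 9.498 and 10.3 CPM with the eGFP guide. The lowest Ile GAU library was above every eGFP library, as the naming required, and the log2 fold change was 1.84 ± 0.22 (adjusted p = 0.00357). CDH11, the cadherin of osteoblasts and mesenchymal cells, was at 90.6, 76.7, 64.0 and 71.1 CPM with the Ile GAU guide and at 16.2, 16.7, 27.3 and 27.3 CPM with the eGFP guide (log2 1.78 ± 0.18, adjusted p = 0.00137). For CDH11 the fold was 2.34 on the log2 scale in Ctrl cells and 1.30 in OE cells, and the interaction was not called for it or for any other gene. ARHGAP30, a GTPase-activating protein of small GTPases, was at 18.0, 14.5, 16.9 and 12.7 CPM with the Ile GAU guide and at 6.73, 4.01, 6.73 and 6.44 CPM with the eGFP guide (log2 1.38 ± 0.22, adjusted p = 0.0135). ESAM, an adhesion molecule of endothelial tight junctions, rose by a log2 fold change of 0.85 ± 0.16 (adjusted p = 0.0300). The endothelial markers themselves did not follow: CDH5 was at 0 in all 8 libraries, and PECAM1 was at 3.88 to 10.3 CPM with the Ile GAU guide and 5.67 to 8.68 CPM with the eGFP guide.

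ZNF10 combined a high level with a wide separation. Its RNA was at 273, 255, 204 and 262 CPM in the Ile GAU libraries and at 105, 111, 118 and 127 CPM in the eGFP libraries. All 4 Ile GAU values were above 200 CPM and all eGFP values under 130 CPM, with a log2 fold change of 1.10 ± 0.10 (adjusted p = 0.00083). ZNF10 is the gene whose KRAB domain is fused to dCas9 in common CRISPRi vectors. Whether its counts hold reads of the vector was not tested, since counts per gene do not show where in the gene a read lies. The cofactors of KRAB repression were not called: TRIM28 differed by 0.38 ± 0.23 (adjusted p = 0.608), SETDB1 by 0.06 ± 0.10 (0.856), CBX5 by -0.29 ± 0.10 (0.257) and CBX3, which lies on chromosome 7, by -0.35 ± 0.11 (0.209), each as a log2 fold change. CBX1, ATF7IP, MORC2 and SMARCAD1 lay between -0.15 and 0.02. Without Ile GAU OE replicate 2, CBX3 and CBX5 were called lower (-0.50 and -0.40, adjusted p = 0.00235 and 0.00682), and so they were without both Ile GAU OE libraries and with no filter on low counts. With no filter TRIM28 was called higher too (adjusted p = 0.00736).

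The remaining risen genes of the 12 with the highest fold had log2 fold changes between 0.70 and 1.34. The gene CPM, carboxypeptidase M, a membrane enzyme that trims C-terminal lysine and arginine, rose by 1.18 ± 0.24 (adjusted p = 0.0347). PFKFB4 makes fructose 2,6-bisphosphate, an activator of glycolysis. It was at 19.9, 15.2, 16.6 and 14.7 CPM with the Ile GAU guide and 9.501, 8.68, 8.31 and 7.73 with the eGFP guide (log2 0.95 ± 0.17, adjusted p = 0.0235). TET1, the 5-methylcytosine dioxygenase, passed narrowly (log2 0.70 ± 0.15, adjusted p = 0.04998), although its 18.7 to 20.6 CPM with the Ile GAU guide did not overlap with 10.3 to 13.5 CPM with the eGFP guide. APCDD1L, a paralog of a Wnt inhibitor, and COMMD3, a subunit of the COMMD complex of endosomal sorting, complete the set and are taken up with their neighbours.

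**Figure D1:**
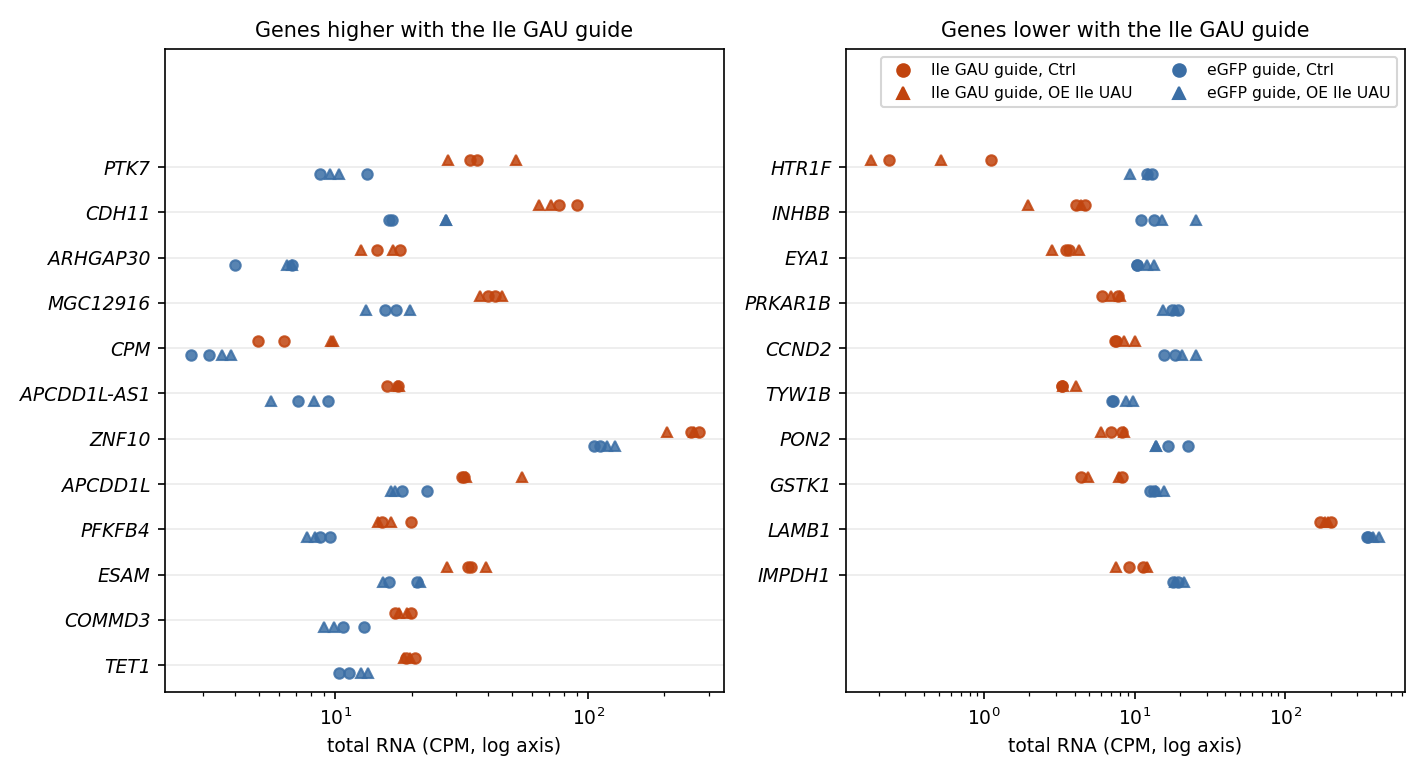
Total RNA of 12 risen and 10 fallen genes among those with the largest fold changes, in CPM on a log axis, 1 point per library (4 per guide; circles Ctrl, triangles OE Ile UAU). Genes were chosen for having the 4 Ile GAU libraries wholly on 1 side of the 4 eGFP libraries. Among them HTR1F has the widest gap.

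Of the 24 genes with the largest fold changes, 12 in each direction, 12 were still called without Ile GAU Ctrl replicate 1, Ile GAU Ctrl replicate 2 or any 1 of the 4 eGFP libraries, with adjusted p up to 0.202, and all 24 without Ile GAU OE replicate 1 or OE replicate 2. With both Ile GAU OE libraries left out, 15 of the 24 were called. APCDD1L, APCDD1L-AS1, COMMD3, CPM, GSTK1, IMPDH1, PFKFB4, TET1 and TYW1B were not, with adjusted p up to 0.361. All 24 kept their direction, which their non-overlapping libraries all but fix in advance.

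A few called genes fell outside the rule on level and are named for their size after their values were seen. TNS1, which encodes tensin 1 of focal adhesions, had 5.15, 5.63, 6.77 and 8.27 CPM with the Ile GAU guide and 1.19, 0.668, 1.98 and 1.55 CPM with the eGFP guide (log2 2.26 ± 0.30, adjusted p = 0.00502). IGSF3, an immunoglobulin superfamily member, rose by 2.11 ± 0.41 (adjusted p = 0.0311), with 50 pooled reads in Ile GAU libraries against 8 in eGFP libraries. CDH18, a cadherin of neural tissue, fell by 2.93 ± 0.50 on the log2 scale (adjusted p = 0.0177), with 6 pooled reads in Ile GAU libraries against 35 in eGFP libraries. With so few reads the ratios are loose: Ile GAU over eGFP, CDH18 was at 0.125 (95% exact interval 0.043 to 0.300, counting error only) and IGSF3 at 4.56 (2.14 to 11.1). Leaving out 1 library ends these calls: CDH18 passed the filter in 4 of the 8 such fits and was called in 0 of them, and IGSF3 passed in 7 and was called in 1.

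Better-covered genes of smaller change were also called, but most of these calls were lost in most fits with 1 library left out. Of the 8 fits with 1 library left out, DSG2 was called in 8, PAPPA in 7, and PDE5A and TXNIP in 4. COLGALT2, CTSC and TUBB6 were called in 3 and the other genes of this paragraph in 2. DSG2, the desmosomal cadherin desmoglein 2, was at 121, 124, 132 and 124 CPM with the Ile GAU guide and at 184, 181, 189 and 185 CPM with the eGFP guide (log2 -0.56 ± 0.07, adjusted p = 0.00357). PAPPA, the protease that cleaves IGF-binding proteins, was at 51.5, 54.4, 48.6 and 52.2 CPM with the Ile GAU guide and at 72.8, 85.1, 83.1 and 76.0 CPM with the eGFP guide (log2 -0.62 ± 0.09, adjusted p = 0.00708). In both genes the gap between the guides was wider than the range of the Ile GAU libraries. Lower by 0.40 to 0.92 on the log2 scale were also PDE5A, the phosphodiesterase of cyclic GMP (-0.92 ± 0.15), COLGALT2, a collagen galactosyltransferase (-0.67 ± 0.13), SDC2, the heparan sulfate proteoglycan syndecan 2 (-0.50 ± 0.10), ALDH3A2, a fatty aldehyde dehydrogenase (-0.42 ± 0.07), and the histone H2A deubiquitinase MYSM1 (-0.40 ± 0.08). On the risen side, TNFRSF10D, a decoy receptor for TRAIL (0.63 ± 0.12), CTSC, the lysosomal peptidase cathepsin C (0.52 ± 0.09), TUBB6, a beta tubulin (0.49 ± 0.09), ERRFI1, a feedback inhibitor of EGFR (0.39 ± 0.08), and TRIM25, a ubiquitin ligase of RIG-I signalling (0.37 ± 0.07), were called with smaller folds. TXNIP, the thioredoxin inhibitor that also limits glucose uptake, rose by 0.59 ± 0.09 (adjusted p = 0.0127), and SLIT2, the axon guidance ligand of ROBO receptors, by 0.51 ± 0.08 (adjusted p = 0.0135). NT5E, the ecto-enzyme CD73 that makes adenosine, had the highest mean level of all called genes, between 821 and 855 CPM with the Ile GAU guide and between 991 and 1091 CPM with the eGFP guide, and fell by 0.30 ± 0.06 on the log2 scale (adjusted p = 0.0367).

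Chromosome 7 carried the largest group of changes. Its 96 fallen genes were 17.4% of its 553 tested genes, while 65 of the 11167 other tested genes (0.582%) were called, 35 higher and 30 lower. These others include 154 symbols with no position. Of those SHFM1 was called (-0.42 ± 0.08), and RefSeq gives that symbol as an older name of SEM1 and of DLX5, both on chromosome 7. The shift was not limited to called genes: 516 of the 553 were lower with the Ile GAU guide, the median log2 fold change was -0.36, and in 45.2% all 4 Ile GAU libraries were under all 4 eGFP libraries. Medians of the other chromosomes ran over -0.04 on chromosome 4 to 0.14 on chromosome 19. Relative to the mean of all libraries, the chromosome's median was -0.19, -0.18, -0.19 and -0.17 in the Ile GAU libraries and 0.20, 0.20, 0.18 and 0.18 in the eGFP libraries. The libraries of a guide thus differed by a few hundredths, also in the Ile GAU OE pair that stood apart elsewhere. In bulk RNA, a lower level in every cell and a loss in a share of the cells cannot be told apart.

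**Figure D2:**
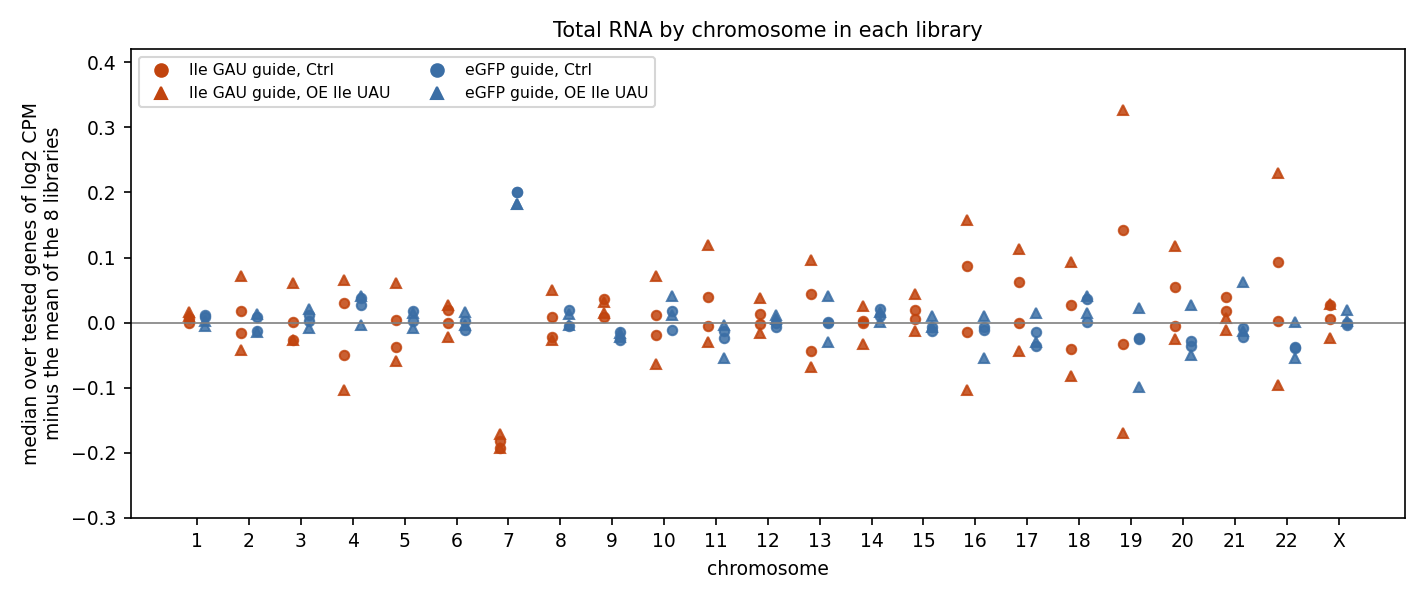
Median over the tested genes of each chromosome of log2 CPM minus the mean of the 8 libraries, 1 point per library (red Ile GAU guide, blue eGFP guide; circles Ctrl, triangles OE Ile UAU). Chromosome 7 is the place where the 4 Ile GAU libraries lie near -0.18 and the 4 eGFP libraries near 0.19, while on chromosome 19 the Ile GAU OE libraries differ from each other by more than the guides do.

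The lower level ran along the whole chromosome. In 16 windows of 10 Mb the median log2 fold change was between -0.51 and -0.29, whereas the 246 windows elsewhere with at least 15 tested genes gave -0.17 to 0.23. It was -0.39 in Ctrl cells and -0.33 in OE cells, and between -0.35 and -0.39 whichever library was left out. Genes of all levels took part: the median was -0.34 among the 64 genes under 5 CPM and -0.40 among the 135 genes of at least 80 CPM. The share called followed the level, with 0 of 64 called under 5 CPM, 6 of 184 from 5 to 20 CPM, 27 of 170 from 20 to 80 CPM and 63 of 135 above. A chromosome 7 gene that was not called is therefore not shown to be unchanged.

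Only 6 chromosome 7 genes fell by more than 1 on the log2 scale. PRKAR1B, a regulatory subunit of protein kinase A, was at 7.73, 6.10, 8.02 and 6.98 CPM with the Ile GAU guide and at 17.8, 19.4, 18.6 and 15.5 CPM with the eGFP guide (log2 -1.30 ± 0.18, adjusted p = 0.00583). LAMB1, the laminin beta 1 chain of basement membranes, was well covered, at 202, 171, 191 and 184 CPM with the Ile GAU guide and 347, 356, 421 and 384 CPM with the eGFP guide. The log2 fold change of LAMB1 was -1.01 ± 0.08 (adjusted p = 0.000497), and its groups were far apart with either construct. PON2, a lactonase of the paraoxonase family, GSTK1, the mitochondrial glutathione transferase, and TYW1B, a copy of the wybutosine-synthesis gene TYW1, fell by 1.13 ± 0.20, 1.10 ± 0.23 and 1.21 ± 0.22 on the log2 scale. Reads of TYW1B and TYW1 may not separate, so the TYW1B value is uncertain. IMPDH1, an enzyme of guanine nucleotide synthesis, fell by 0.95 ± 0.19 on the log2 scale (adjusted p = 0.0318).

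Well-known genes of the chromosome were looked up outside the naming rule. MET, the receptor of hepatocyte growth factor, was at 327, 355, 296 and 345 CPM with the Ile GAU guide and 526, 483, 480 and 495 CPM with the eGFP guide (log2 -0.59 ± 0.07, adjusted p = 0.00473). CAV1, caveolin 1, had non-overlapping values but was not called (-0.34 ± 0.09, adjusted p = 0.105). EGFR, at 337, 364, 357 and 371 CPM with the Ile GAU guide and 363, 339, 345 and 345 CPM with the eGFP guide, did not separate by guide (0.04 ± 0.07, adjusted p = 0.863). CDK6 likewise overlapped (-0.07 ± 0.10, adjusted p = 0.834). Among the 37 tested genes of the chromosome with a higher value, PIK3CG, a catalytic subunit of PI3-kinase, came nearest to a call (0.81 ± 0.18, adjusted p = 0.0518). Metabolic members of the fixed lists fell with the chromosome: NDUFA5 of complex I (-0.63 ± 0.09), the dehydrogenase subunit DLD (-0.51 ± 0.09), the sterol demethylase CYP51A1 (-0.48 ± 0.07), the mTORC1 activator RHEB (-0.51 ± 0.10) and the folding enzyme PDIA4 (-0.40 ± 0.08), as log2 fold changes. Each is the 1 called member of its list, so none of those lists is described by it.

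A few called genes off chromosome 7 lay near each other. Of the 64 called genes there with a position, 6 had another called gene within 1 Mb, in 3 pairs. Off chromosome 7, 0.582% of all tested genes were called. How many pairs that share would give was not worked out, so the pairs are not read as a trait of these places. On chromosome 20, APCDD1L and its antisense neighbour APCDD1L-AS1 both rose. APCDD1L-AS1 was at 17.7, 15.95, 17.5 and 17.8 CPM with the Ile GAU guide and 7.13, 9.35, 5.54 and 8.25 CPM with the eGFP guide (log2 1.169 ± 0.19, adjusted p = 0.0135). APCDD1L was at 31.7, 32.1, 54.9 and 32.8 CPM with the Ile GAU guide and at 22.96, 18.4, 16.6 and 17.3 CPM with the eGFP guide (log2 1.02 ± 0.20, adjusted p = 0.0346). The genes overlap, the strand setting of the counting is not given in the sources used here, and reads of one cannot be told from reads of the other. VAPB, 8000 bases away, differed by -0.01 ± 0.07.

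On chromosome 10, COMMD3 rose with DNAJC1, 312658 bases away, a chaperone cofactor of the endoplasmic reticulum. COMMD3 was at 19.9, 17.1, 19.2 and 17.8 CPM with the Ile GAU guide and 10.7, 13.02, 9.89 and 9.02 CPM with the eGFP guide (log2 0.80 ± 0.17, adjusted p = 0.0389). DNAJC1 was at 103, 92.4, 93.9 and 104 CPM with the Ile GAU guide and at 63.7, 57.1, 76.4 and 58.5 CPM with the eGFP guide (log2 0.63 ± 0.10, adjusted p = 0.0144). BMI1, the Polycomb ring finger protein gene 793 bases from COMMD3, did not overlap between the guides and just missed the threshold (0.92 ± 0.20, adjusted p = 0.0533), and PIP4K2A, 214548 bases from COMMD3, was at -0.08 ± 0.07. The last pair, CYP4V2, a fatty acid hydroxylase, and SORBS2, a cytoskeletal adaptor, fell together on chromosome 4 (log2 -0.76 ± 0.13 and -0.63 ± 0.11). On chromosome 17 the noncoding MGC12916 rose, and HS3ST3B1, a heparan sulfate sulfotransferase gene that overlaps it and shares the limit on strand, was at 0.60 ± 0.13 (adjusted p = 0.0546).

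The called noncoding RNAs were all of the long type, and their count of 3 is too small to read as a trait of that type. Of 388 tested long noncoding RNAs 3 rose, MGC12916, APCDD1L-AS1 and LINC00452, and 0 fell, where 0.299% of all tested genes rose and 1.08% fell. Their median was -0.01. MGC12916 was at 40.1, 42.7, 37.4 and 45.5 CPM with the Ile GAU guide and 17.4, 15.7, 19.8 and 13.1 CPM with the eGFP guide (log2 1.34 ± 0.15, adjusted p = 0.00234). The 30 tested small nucleolar RNAs had a median of -0.29 and 0 calls by edgeR. PAPPA-AS1 and DSG2-AS1, antisense to the fallen PAPPA and DSG2, were both at -0.62 (SE 0.14 and 0.17), with adjusted p of 0.0548 and 0.121. As the counting strand is not known, they cannot be told from their partners. The abundant nuclear RNAs MALAT1 and NEAT1 were at -0.07 ± 0.16 and -0.40 ± 0.12 (adjusted p = 0.899 and 0.181).

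The target itself is not among the counted genes. The tRNA-Ile-GAU genes TRI-GAT1-1, TRI-GAT1-2 and TRI-GAT1-3 are placed by RefSeq (GRCh38.p14) on chromosome X, at 3838377-3838450, 3876801-3876874 and 3915230-3915303. The nearest tested gene below them, the kinase gene PRKX, was at 14.7, 19.5, 14.4 and 20.7 CPM with the Ile GAU guide and 15.8, 15.7, 14.2 and 12.9 CPM with the eGFP guide. These values overlap (log2 0.25 ± 0.18, adjusted p = 0.660). The nearest above, HDHD1, a pseudouridine phosphatase gene 2790535 bases from TRI-GAT1-3, was at -0.49 ± 0.19 (adjusted p = 0.361 by edgeR). It was at 6.26, 8.91, 9.98 and 8.27 CPM with the Ile GAU guide and at 11.1, 12.7, 10.7 and 12.9 CPM with the eGFP guide. These values do not overlap, as in 5.08% of all tested genes on the lower side, but HDHD1 was not called. The synthetase genes for isoleucine, cytosolic IARS and mitochondrial IARS2, were at -0.02 ± 0.07 and -0.23 ± 0.08 (adjusted p = 0.925 and 0.236 by edgeR). IARS overlapped between the guides, whereas all Ile GAU libraries were under all eGFP libraries for IARS2. Of 23 synthetases, TARS, which charges threonine, rose by 0.38 ± 0.07 (adjusted p = 0.0305 by edgeR), where 0.299% of all tested genes rose. Of 25 tRNA processing and polymerase III genes 0 were called by edgeR, where 1.37% of all tested genes were.

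Matrix and protease genes moved in both directions. Of 23 tested matrix genes 1 rose and 2 fell, where 0.299% of all tested genes rose and 1.08% fell. The median of the matrix genes, 0.01, was near the 0.02 of all tested genes. The laminin chains parted. LAMB3 was at 303, 241, 372 and 251 CPM with the Ile GAU guide and 174, 163, 202 and 204 CPM with the eGFP guide (log2 0.65 ± 0.12, adjusted p = 0.0247), and LAMA3 was at 82.1, 70.8, 68.1 and 62.3 CPM with the Ile GAU guide and 109, 99.8, 111 and 104 CPM with the eGFP guide (log2 -0.59 ± 0.09, adjusted p = 0.0131). These chains are partners in the same laminin. Among 13 proteases and inhibitors, TIMP3, an inhibitor of metalloproteinases, and PLAT, tissue plasminogen activator, rose (0.39 ± 0.08 and 0.62 ± 0.13, adjusted p = 0.0309 and 0.04998), and 1 member fell. Of 21 non-canonical Wnt genes PTK7 was the 1 called, with a list median of 0.18. The level of that list in each library was 0.09, 0.04, 0.15 and -0.01 with the Ile GAU guide and -0.08, -0.09, -0.06 and -0.05 with the eGFP guide, on the log2 scale relative to the mean of all 8. Of 41 lists scored in this way, 3 did not overlap between the guides: non-canonical Wnt and the proteases and inhibitors were above, and a list of 7 tested small nuclear and nucleolar RNAs below. Of all tested genes 8.47% did not overlap, so 3 of 41 lists is near that share and is not read as a trait of these lists.

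Of 24 tested interferon-induced genes, 2 fell and 0 rose, where 1.08% of all tested genes fell, and the list's median was -0.12. IFIT1, which binds RNA lacking host cap methylation, was at 45.6, 46.7, 43.5 and 47.3 CPM with the Ile GAU guide and at 67.3, 69.8, 68.5 and 78.4 CPM with the eGFP guide (log2 -0.64 ± 0.09, adjusted p = 0.00583). DDX60, a helicase of viral RNA sensing, was at 40.1, 32.1, 33.0 and 34.6 CPM with the Ile GAU guide and at 44.3, 48.7, 71.2 and 59.5 CPM with the eGFP guide (log2 -0.68 ± 0.14, adjusted p = 0.0377). IFIT2 and IFIT3, beside IFIT1 on chromosome 10, did not overlap between the guides and just missed (-0.53 and -0.47, both adjusted p = 0.052). Other members did not share this: ISG15 was at 0.22 ± 0.48 and IFITM3 at 0.38 ± 0.30, neither of them called. Without Ile GAU OE replicate 1 the list's median was -0.38, and without OE replicate 2 it was -0.06.

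Ribosomal protein genes and S100 genes varied most in single libraries. Of the 52 ribosomal protein genes, 6 had all Ile GAU libraries above all eGFP libraries, as 3.4% of all tested genes did. All 52 had a higher value with the Ile GAU guide, with a median of 0.36, but 0 were called by edgeR (lowest adjusted p = 0.0639, RPS4X). Their level per library was 0.12, -0.01, 0.84 and -0.26 with the Ile GAU guide and 0.03, -0.06, -0.47 and -0.11 with the eGFP guide, so that Ile GAU OE replicate 1 stood far above the rest. Without that library the median was 0.02, with 30 of 52 higher. The 9 tested S100 genes were also highest in that library, at 0.18, -0.06, 0.89 and -0.76 with the Ile GAU guide and 0.14, 0.05, -0.41 and 0.08 with the eGFP guide. S100A4, a calcium-binding protein tied to metastasis, was lower in most Ile GAU libraries, at 79.1, 57.5, 117 and 32.8 CPM with the Ile GAU guide and 168, 149, 93.0 and 172 CPM with the eGFP guide. These overlap through the OE replicates 1 (log2 -1.01 ± 0.31, adjusted p = 0.185), and without Ile GAU OE replicate 1 S100A4 was called at -1.52 (adjusted p = 3.76e-05). The S100 list's median turned with that library too, at 0.28 with all libraries and -0.26 without it, with 8 of 9 genes lower. Many ribosomal protein genes have near-identical pseudogenes, which makes their counts uncertain.

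**Figure D3:**
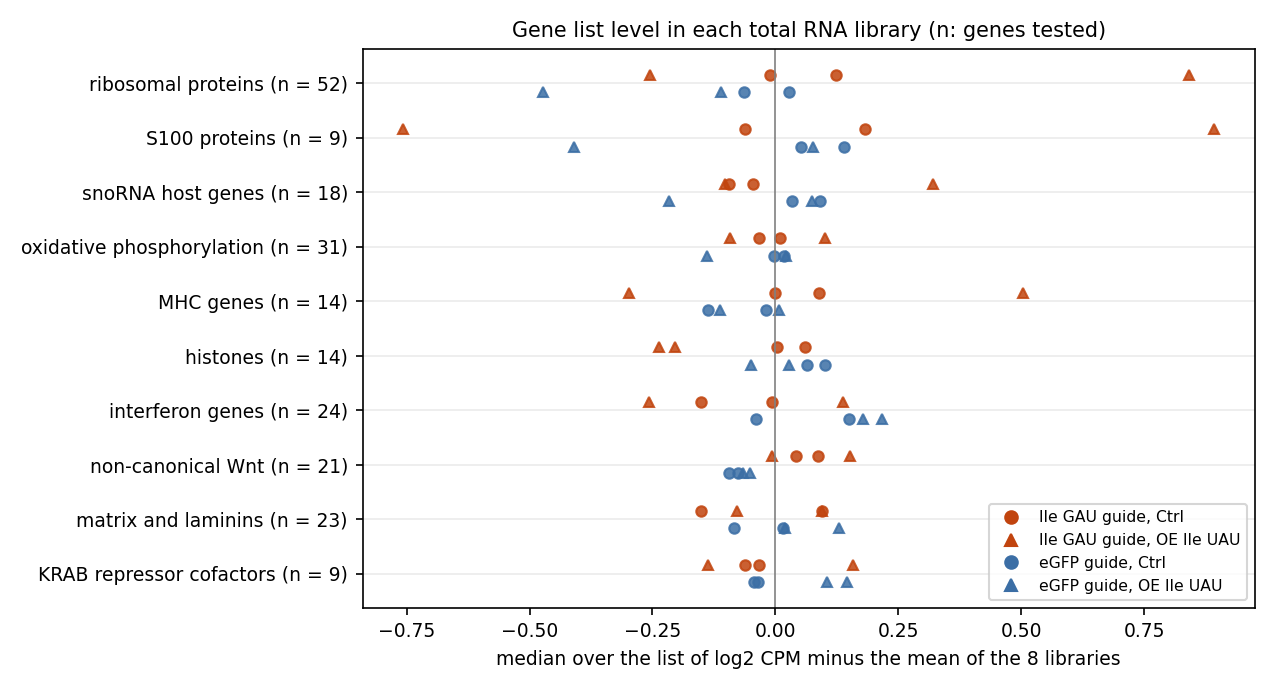
Level of 10 gene lists in each total RNA library, as the median over the list of log2 CPM minus the mean of the 8 libraries (red Ile GAU guide, blue eGFP guide; circles Ctrl, triangles OE Ile UAU). For ribosomal proteins and S100 genes the Ile GAU OE libraries lie at opposite ends, at 0.84 and -0.26 and at 0.89 and -0.76. The non-canonical Wnt list spans a narrow range and is 1 of 3 among 41 that do not overlap between the guides, where 8.47% of all tested genes do not.

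The remaining lists had at most 1 called gene each, where 1.37% of all tested genes were called. BAG3, a cochaperone, was the 1 of 19 heat shock genes that fell (-0.40 ± 0.08, adjusted p = 0.0346). Histones (14 genes, median -0.18), MHC genes (14, 0.16), glycolysis (20, 0.08), replication (28, -0.05), mitosis (26, -0.02), p53 targets (15, 0.04), the integrated stress response (22, 0.04), amino acid transporters (18, 0.04), NF-kB targets and cytokines (16, 0.08) and integrins (13, -0.02) had 0 calls. Without 1 library each, the histone median ran over -0.26 (without eGFP Ctrl replicate 2) to -0.08 (without eGFP OE replicate 1), and the MHC median was 0.04 without Ile GAU OE replicate 1 and 0.36 without OE replicate 2. The absence of calls does not show that these genes were equal.

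The construct had no called gene in the same fit. With OE against Ctrl, 0 of 11720 genes (0%) passed by edgeR, 252 had an unadjusted p under 0.05, limma voom called 0 and DESeq2 4. The interaction of guide and construct had 0 called genes (0%) by edgeR, DESeq2 and voom, with 312 at an unadjusted p under 0.05. Leaving out Ile GAU OE replicate 2 gave 520 interaction calls and 1 construct call, leaving out OE replicate 1 gave 2 and 5, and leaving out any other library gave 0 of either. Each such fit leaves 1 library in an arm, which is assumed to vary like the others.

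Footprints of the same guides, from separate libraries of the same 4 groups, were set beside the called genes. In footprints 206 of 8143 genes (2.53%) were called by guide, 51 higher and 155 lower. Of the 35 risen genes, 23 could be tested in footprints, all 23 were higher there and 13 were called (0.626% of all tested genes were called higher). Of the 126 fallen genes, 109 could be tested, 106 were lower and 40 were called (1.9% of all were called lower). The footprint libraries share the cell lines and the guide, so they repeat the measurement in other libraries and do not separate the guide from the cells that received it. CDH11 footprints were at 106, 86.9, 73.9 and 71.9 CPM with the Ile GAU guide and 20.2, 20.3, 22.9 and 20.96 CPM with the eGFP guide (log2 2.03 ± 0.21, adjusted p = 1.03e-12). ZNF10 footprints were at 514, 489, 416 and 636 CPM with the Ile GAU guide and 185, 161, 243 and 217 CPM with the eGFP guide (log2 1.36 ± 0.11, adjusted p = 2.74e-18).

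**Figure D4:**
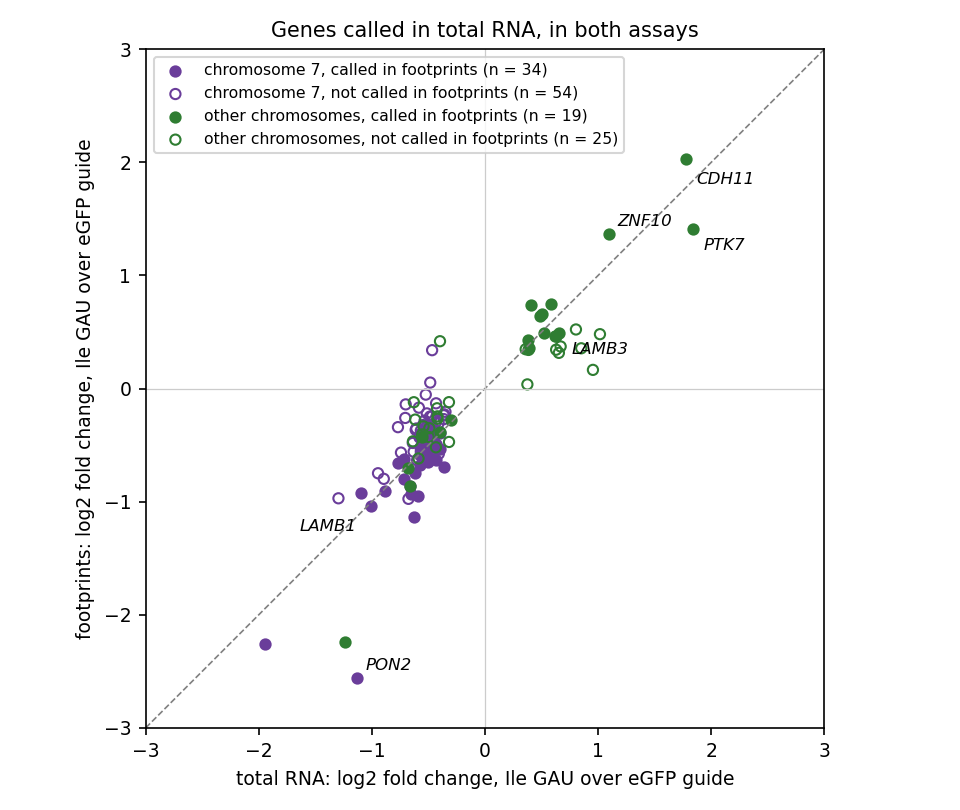
Log2 fold change, Ile GAU over eGFP guide, in total RNA (x axis) and in footprints (y axis) for the 132 genes called in total RNA and tested in both (purple chromosome 7, green elsewhere; filled points called in footprints; dashed line equal change). Points lie mostly in the quadrants of equal sign, and CDH11, PTK7 and ZNF10 stand at the upper right.

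The guide's effect in footprints minus that in total RNA was called for 0 of 8012 genes (0%) by edgeR, with 410 at an unadjusted p under 0.05, and it was 0 in every alternative run for it. PON2 had the wide gap of -1.49 ± 0.43 on the log2 scale without passing (adjusted p = 0.834). LAMB1 differed by -0.03 ± 0.13 between the assays, at 182, 190, 212 and 200 CPM of footprints with the Ile GAU guide and 360, 443, 389 and 411 CPM with the eGFP guide. A median of -0.51 in total RNA went with one of -0.46 in footprints for the 88 fallen chromosome 7 genes tested in both.

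The count of 161 genes rests on its libraries unevenly. It was 52 and 38 without Ile GAU Ctrl replicates 1 and 2, 39 and 36 without eGFP Ctrl replicates 1 and 2, and 39 and 41 without eGFP OE replicates 1 and 2, with every one of those genes among the 161. It was 379 without Ile GAU OE replicate 1 and 405 without OE replicate 2, of which 159 and 160 were among the 161. With both of these left out 228 genes were called and 118 were shared. All 161 kept their sign in every fit that tested them, which was all 8 fits for each gene but CDH18 and IGSF3. Their non-overlapping libraries all but fix that sign in advance, so it adds no support. Of the 161, 32 were called whichever library was left out, 5 higher and 27 lower. Off chromosome 7, where 11 of the 32 lie, they included CCND2, CDH11, DSG2, EYA1, HTR1F, IFIT1, MGC12916, PTK7, TNS1 and ZNF10. With chromosome 7 genes left out before scaling, 24 of the 65 other genes were called, 10 higher and 14 lower.

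**Figure D5:**
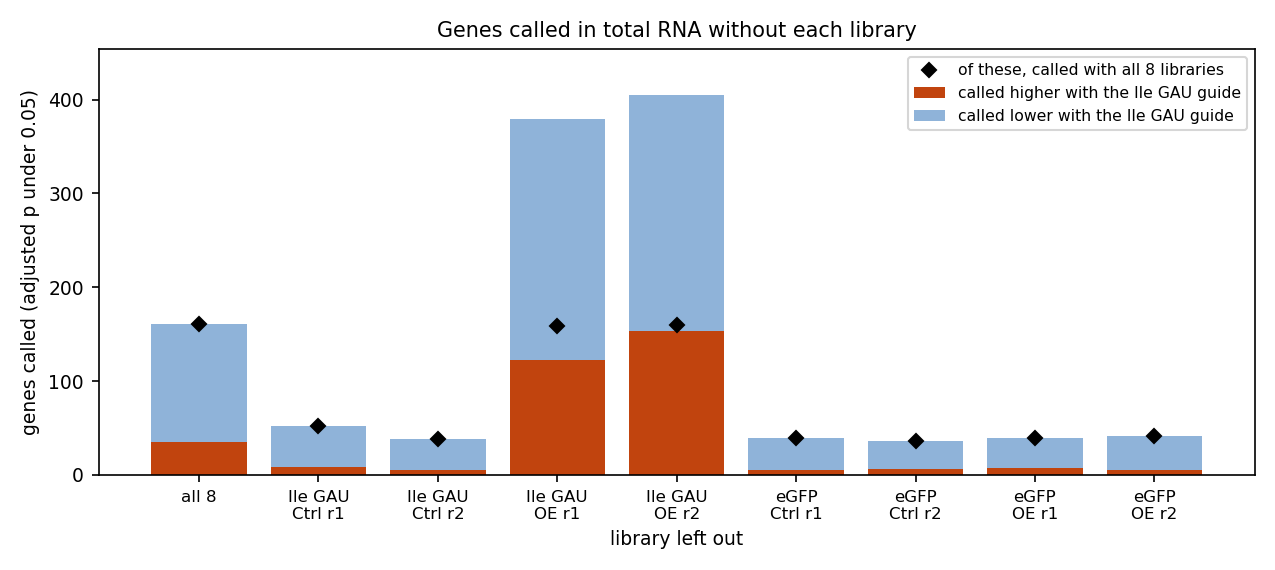
Number of genes called in total RNA (y axis) with all 8 libraries and without each library in turn (x axis), split into higher (red) and lower (light blue) with the Ile GAU guide; diamonds count those also called with all 8. The number is 36 to 52 without any of 6 libraries and 379 and 405 without the Ile GAU OE libraries.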

How the data were processed

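Total RNA and footprints of 4 groups of 2 libraries each were measured, grouped by guide and construct from the titles. The authors deposited unnormalized counts of reads for each gene symbol. The tools named in the submitters' processing notes are HTSeq, STAR 2.5.2a and cutadapt 1.17, with the build hg38; their settings, strand mode and annotation are not given in the sources used here. The HTSeq summary lines stayed out of all totals and tests; alignments to several places, which were not counted on genes, made up 97.2 to 98.1% of what HTSeq saw in total RNA. Of the 26485 symbols, 23752 are current names of GRCh38.p14, 1566 older names, and 1167 had no match and no position.

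The filter on low counts was filterByExpr with a minimum count of 10 and a minimum total of 15. Counts were scaled by TMM and tested in edgeR 4.0.16 (R 4.3.3) with construct and guide as terms and 5 residual degrees of freedom. The biological coefficient of variation was 13.5%. CPM are unlogged, scaled by effective library size. The ± of a log2 fold change is its standard error. The fits were tested on simulated data. The labels do not say what the replicate numbers mean, and they were not used as pairs.

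Named genes were the 12 highest and 12 lowest called genes with non-overlapping libraries and a mean of at least 5 CPM, called noncoding genes and list members, genes nearest the tRNA genes, IARS, IARS2 and KRAB cofactors. The comparison, the lists and this rule were chosen with earlier results of these data known. Alternatives were other scaling, filters, tools (DESeq2, limma voom), subsets and left-out libraries. Some genes that the rule selects are not reported here.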

Additional observations from a re-analysis of the deposited data

Results flagged for a closer look

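In a group of 4 libraries a value was flagged where its gap to the nearest other exceeded Dixon's 95% critical value; 102 gene groups and 82 list groups were examined, and chance flags about 1 in 20. Of genes, APCDD1L was at 54.88 CPM in Ile GAU OE replicate 1 (others 31.7 to 32.8), TYW1B at 4.098 CPM in the same library (others 3.28 to 3.36), TIMP3 at 873.4 CPM in Ile GAU Ctrl replicate 2 (others 997.3 to 1012) and ARHGAP30 at 4.007 CPM in eGFP Ctrl replicate 2 (others 6.44 to 6.73).

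Of lists, given as the median log2 CPM relative to the mean of all 8 libraries, Ile GAU OE replicate 1 was high for snoRNA host genes at 0.3204 (others -0.10 to -0.05) and for tRNA processing and polymerase III at 0.06638 (others 0.0106 to 0.0150). Ile GAU Ctrl replicate 1 was high for immediate early genes at 0.1659 and hypoxia genes at 0.0845. The library eGFP OE replicate 1 was low for S100 genes at -0.4094, genes of isoleucine tRNA biology at -0.1941 and oxidative phosphorylation at -0.1395, and high for the unfolded protein response at 0.1595. Among eGFP libraries, OE replicate 2 was high for metastasis genes of this line at 0.0607.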

How the results depend on the processing

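In place of the 161 genes called by guide, RLE scaling called 158 (158 shared with the 161), limma voom 162 (153 shared), a minimum count of 30 193 (155), DESeq2 207 (144), thinning to the shallowest library 142 (129) and protein-coding genes only 167 (157). The count was 549 with no filter on low counts (160 shared), 21 against a fold of 1.2, 24 without chromosome 7 genes, 3 in Ctrl cells alone and 8 in OE cells alone. It was 524 (all 161 shared) with the ribosomal protein score as a covariate, and 228 without both Ile GAU OE libraries; these alternatives were added after seeing the data. Without 1 library each it ran from 36 to 405. The replicate numbers were not used as pairs. Deviations from the group means correlated at -0.42 to 0.36 between groups, which cannot show whether samples with the same number belong together. The fit with a replicate block called 142 genes, 135 of them shared. The construct count of 0 was 4 by DESeq2 and 12 with no filter, and 0 to 5 without 1 library each. The interaction count of 0 was 40 with no filter and 0 to 520 without 1 library each. The footprint count of 206 was 85 by DESeq2 and 131 to 193 without 1 library each. The footprint minus total RNA count was 0 in all alternatives run. The cause of these differences was not tested.

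Signs turned round in 6 of the named genes, none of them called, on the log2 scale. CBX1 was at -0.0101 without chromosome 7 genes, -0.0066 by voom, -0.0640 in OE cells, -0.0011 with protein-coding genes only, and -0.0594 to 0.0763 without 1 library each, where IARS ran over -0.0728 to 0.0133 and MORC2 over -0.0390 to 0.0704. MORC2 was at -0.1301 and SETDB1 at -0.0973 in OE cells. With the ribosomal protein score ATF7IP was at 0.0125, IARS at 0.0323 and TRIM28, at 0.38 without it, at -0.0361. On chromosome 7 calls were rarer at low level: 0 of 64 genes under 5 CPM were called, at a median like that of the rest. The reason was not tested.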
